A study of Homo sapiens with 6 samples.

Results

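Clustered histone genes are the many near-identical genes, grouped at a few places in the genome, that encode the linker histone H1 and the core histones H2A, H2B, H3 and H4. They were followed in LNCaP cells, an androgen-sensitive prostate cancer line of luminal type, in 3 samples treated with 250 nM CDKI-73, a small-molecule inhibitor of the transcription kinase CDK9, and in 3 samples given the vehicle DMSO. Both groups were unmodified LNCaP cells, were harvested at 4 h, and were described in the study's methods as biological replicates. RNA-seq libraries were poly(A)-selected, and the deposited table gives CPM (reads counted for a gene, scaled to the same total in every sample) for 29744 genes. The 3 vehicle samples carry the inhibitor's name in their titles as well, and were grouped by the treatment label, DMSO. A gene was counted as a member when its older symbol began with HIST1H, HIST2H, HIST3H or HIST4H and its CPM was above 0 in at least 3 of the 6 samples. Of 73 rows with such a symbol, 55 met this rule and 18 did not, of which 13 were at 0 in every sample. The 55 members comprise 5 H1, 15 H2A, 17 H2B, 8 H3 and 10 H4 genes.

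Replication-dependent histone mRNAs are made mainly in S phase, when new DNA has to be packed into nucleosomes. Most end at a short stem-loop rather than in a poly(A) tail. Stem-loop binding protein (SLBP) and the U7 small nuclear ribonucleoprotein direct the cut after that stem-loop, and NPAT and CASP8AP2 (FLASH) gather at the histone gene clusters to drive their transcription and processing. Some clustered histone genes also give rise to polyadenylated transcripts, which is the form that a poly(A)-selected library captures.

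The stem-loop was read from hg38, the build that the submitters' processing notes also name, because it is the sequence feature by which these mRNAs are defined. The 16-base pattern of GG, 3 bases of any kind, TT, any base, T, any base, A, 3 bases of any kind and CC was searched on the coding strand within 100 bases after the stop codon. It was present in 53 of the 53 members with an annotated stop codon (100%), and in 37 of 19846 other genes (0.186%). Other genes here, and other promoters below, are all but those of members, and histone genes outside the rule were not removed from them. How many of the 37 are histone genes was not counted. In members the pattern began 23 to 68 bases after the stop, in 8 distinct forms, and the commonest form, with 31 members, was that of HIST1H1C. The members described most closely are shown here with 5 bases on each side, and capitals mark the stem-loop.
HIST1H1C (chr6:26055739-26055764, minus strand): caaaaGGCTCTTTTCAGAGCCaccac
HIST1H2BK (chr6:27146361-27146386, minus strand): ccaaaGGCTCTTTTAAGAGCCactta
HIST2H2BE (chr1:149886183-149886208, minus strand): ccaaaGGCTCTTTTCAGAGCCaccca
HIST1H2AE (chr6:26217412-26217437, plus strand): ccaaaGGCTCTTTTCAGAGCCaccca
HIST1H3E (chr6:26225591-26225616, plus strand): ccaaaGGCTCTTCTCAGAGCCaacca
HIST1H4H (chr6:26285126-26285151, minus strand): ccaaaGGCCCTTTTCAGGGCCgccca
HIST4H4 (chr12:14770719-14770744, minus strand): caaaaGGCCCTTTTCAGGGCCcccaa
The form in HIST1H3E was found in no other member. A poly(A) signal, AATAAA on the coding strand within 1000 bases after the stop, was found in 25 of these 53 members (47.2%) and in 62.1% of the other genes. A match is a description of the letters and not evidence that the site is used.

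Promoters, taken from RefSeq for GRCh38.p14 as 250 bases before to 50 bases after an annotated start, were listed for 48 members. The CCAAT box was present on either strand in 41 of them (85.4%), against 35.6% of 27257 other promoters. The TATA box, searched as TATAAA, was present in 33 (68.8%), against 11.9%. The octamer ATTTGCAT, which POU2F1 (OCT-1) binds, was present in 22 (45.8%), against 1.72%. The CCAAT box and the octamer differed by class, while TATAAA was found in 40.0% (H1) to 83.3% (H3) of the promoters listed in each class. CCAAT was found in every H1, H2A, H2B and H3 promoter listed but in 1 of 8 H4 promoters, and the octamer in 10 of 14 H2A and 11 of 15 H2B promoters but in no H1 or H4 promoter. Neighbouring H2A and H2B genes with close starts share much of their windows, so 1 site can count for both genes. Only the first listed window of each gene was counted. For HIST1H3D, an H3 gene, that window is the one also listed for HIST1H2AD, with the octamer and no TATAAA. Its further window (chr6:26197237-26197536) has TATAAA and no octamer. The windows of the members with the highest level, the largest rise and the largest fall are printed on the coding strand, with matches on either strand in capitals. No match overlapped another in them, and HIST1H3E has 2 annotated starts.
HIST1H1C (chr6:26056421-26056720, minus strand): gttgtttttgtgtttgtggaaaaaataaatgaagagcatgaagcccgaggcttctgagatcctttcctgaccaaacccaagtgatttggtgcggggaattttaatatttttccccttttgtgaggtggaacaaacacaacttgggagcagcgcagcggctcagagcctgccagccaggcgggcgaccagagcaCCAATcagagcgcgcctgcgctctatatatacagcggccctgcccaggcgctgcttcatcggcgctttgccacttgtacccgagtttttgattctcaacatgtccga
HIST1H2AE (chr6:26216671-26216970, plus strand): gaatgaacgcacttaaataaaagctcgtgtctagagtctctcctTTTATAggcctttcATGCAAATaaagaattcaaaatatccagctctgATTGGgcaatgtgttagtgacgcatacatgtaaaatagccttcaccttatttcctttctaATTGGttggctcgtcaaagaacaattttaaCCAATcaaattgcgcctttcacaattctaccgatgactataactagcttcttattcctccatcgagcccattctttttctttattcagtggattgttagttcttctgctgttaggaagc
HIST1H3E, upstream start (chr6:26223928-26224227, plus strand): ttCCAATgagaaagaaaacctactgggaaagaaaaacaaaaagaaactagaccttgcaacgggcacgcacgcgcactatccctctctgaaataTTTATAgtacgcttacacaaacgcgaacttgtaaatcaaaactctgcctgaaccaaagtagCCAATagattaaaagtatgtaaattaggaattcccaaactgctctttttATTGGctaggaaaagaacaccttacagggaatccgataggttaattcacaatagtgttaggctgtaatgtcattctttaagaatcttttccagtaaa
HIST1H3E, downstream start (chr6:26224885-26225184, plus strand): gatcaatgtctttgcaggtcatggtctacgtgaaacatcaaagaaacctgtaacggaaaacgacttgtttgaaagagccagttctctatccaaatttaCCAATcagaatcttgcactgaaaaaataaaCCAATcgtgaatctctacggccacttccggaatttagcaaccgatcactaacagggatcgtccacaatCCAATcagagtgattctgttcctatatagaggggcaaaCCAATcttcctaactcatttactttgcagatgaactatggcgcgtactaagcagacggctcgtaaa

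All 10 luminal prostate markers examined were at 1 CPM or above, and they summed to 6605 to 6828 CPM in CDKI-73 samples and 7800 to 8194 CPM in DMSO samples. Of the basal, stromal, immune and endothelial marker lists, none summed to more than 19.0 CPM in any sample, and COL1A2 and CD3E were at 0. The stromal sum was 16.9 to 19.0 CPM in CDKI-73 samples against 11.9 to 12.7 CPM in DMSO samples, and the immune sum was 6.36 to 7.41 against 4.89 to 5.66 CPM. Only 2 of 5 stromal and 1 of 5 immune markers reached 1 CPM in any sample, so these sums rest on few genes. The samples were cultures of the LNCaP line, and the sums are not read as a content of other cells. A link between these sums and the histone values was not tested. The spacing of low values implied 46.1 to 52.0 M counted reads (M, 1e6) per CDKI-73 sample and 52.9 to 60.9 M per DMSO sample, so that 3 reads correspond to 0.0492 to 0.0651 CPM. CDKI-73 replicate 3 stood furthest from its group, with a median absolute log2 difference over tested genes of 0.15 and 0.16 from the other two, which differed from each other by 0.065.

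The clustered histone genes made up a larger share of the reads in CDKI-73 samples. Their summed level was 827, 807 and 884 CPM in CDKI-73 samples and 664, 651 and 666 CPM in DMSO samples, a ratio of means of 1.27. The groups did not overlap in CPM, but scaling to GAPDH, HPRT1 and ACTB, the reference genes of the study's qRT-PCR, turned this to a ratio of 0.957. Most of the reads came from a few genes. HIST1H1C, HIST1H2BK, HIST2H2BE and HIST1H2BD carried 86.1% of the members' sum in CDKI-73 samples and 84.6% in DMSO samples, and the other 51 members together summed to 116 ± 2.35 CPM against 101 ± 1.05 CPM (mean ± SD, n = 3 each).

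By class, the CPM sums of H1, H2A and H2B genes were higher in every CDKI-73 sample than in any DMSO sample, although with reference-gene scaling their ratios of means were 1.03, 0.976 and 0.932. H1 genes summed to 262 ± 21.9 CPM in CDKI-73 samples and 191 ± 5.56 CPM in DMSO samples (mean ± SD, n = 3 each). H2A genes summed to 53.8 ± 3.63 CPM against 41.5 ± 1.53 CPM, and H2B genes to 494 ± 15.7 CPM against 399 ± 5.85 CPM. H3 genes went the other way, at 9.10, 8.60 and 8.54 CPM in CDKI-73 samples against 9.60, 9.37 and 10.0 CPM in DMSO samples, a ratio of 0.905 that turned to 1.04 with the median of gene ratios and also lay above 1 with the upper quartile. H4 sums overlapped in CPM, at 21.0 ± 0.85 against 18.9 ± 2.26 CPM, but did not overlap under the other scalings, with ratios of 1.27 (gene ratios), 1.34 (upper quartile) and 0.837 (reference genes). With 3 samples against 3, an exact permutation test cannot go below 0.1, so the sums are given without a test.

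**Figure D1:**
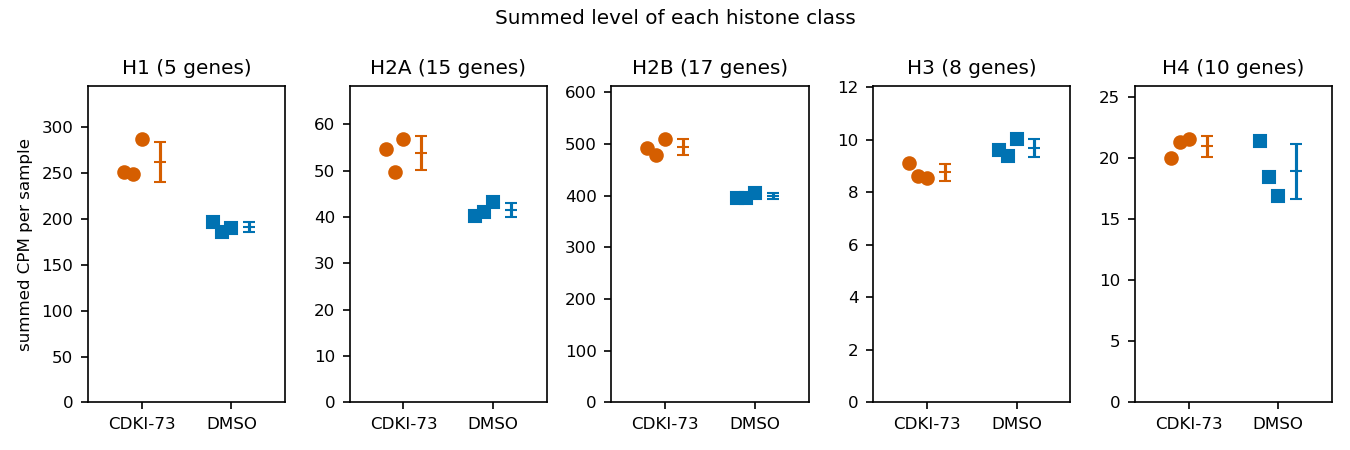
Summed CPM of the members of each histone class in each sample, with axes that start at 0. Points are CDKI-73 samples (circles) and DMSO samples (squares), and bars are mean ± SD of 3 samples. In CPM, H1, H2A and H2B sums lay higher in all CDKI-73 samples, H3 sums lay lower and H4 sums overlapped. With reference-gene scaling the H2A and H2B ratios fell below 1, and the H3 ratio rose above 1 with either other scaling.

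Gene by gene, 31 members with a mean of at least 0.5 CPM were tested with limma on log2(CPM + 0.1), as part of a fit over 13373 genes with Benjamini-Hochberg adjustment. At an adjusted p of 0.05 or less, 10 were higher with CDKI-73 (32.3%), 4 were lower (12.9%) and 17 did not pass. Over all tested genes 24.2% were higher, 48.2% were lower and 27.6% did not pass. No member was higher by 2-fold or more, against 1.11% of all tested genes, and 1 was lower by 2-fold or more, against 22.3%. The members' median log2 fold change was 0.19, against -0.18 over all tested genes, and 23 of the 31 lay above that median. In 11 members every CDKI-73 sample was above every DMSO sample (25.9% of all tested genes) and in 4 every one was below (50% of all tested genes). These p-values measure the spread between these samples, and no test of the members as a set was made. The direction depends on what CPM are set against. When samples were scaled to GAPDH, HPRT1 and ACTB, 0 members were higher and 12 lower. Those genes themselves were higher in CPM with CDKI-73, by 0.55, 0.32 and 0.36 on the log2 scale. The distance between the members' median and that of all tested genes was 0.37 in CPM and 0.38 after that scaling. In bulk RNA, fewer cells of a type, such as cells in S phase, and less RNA per cell cannot be told apart.

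**Figure D2:**
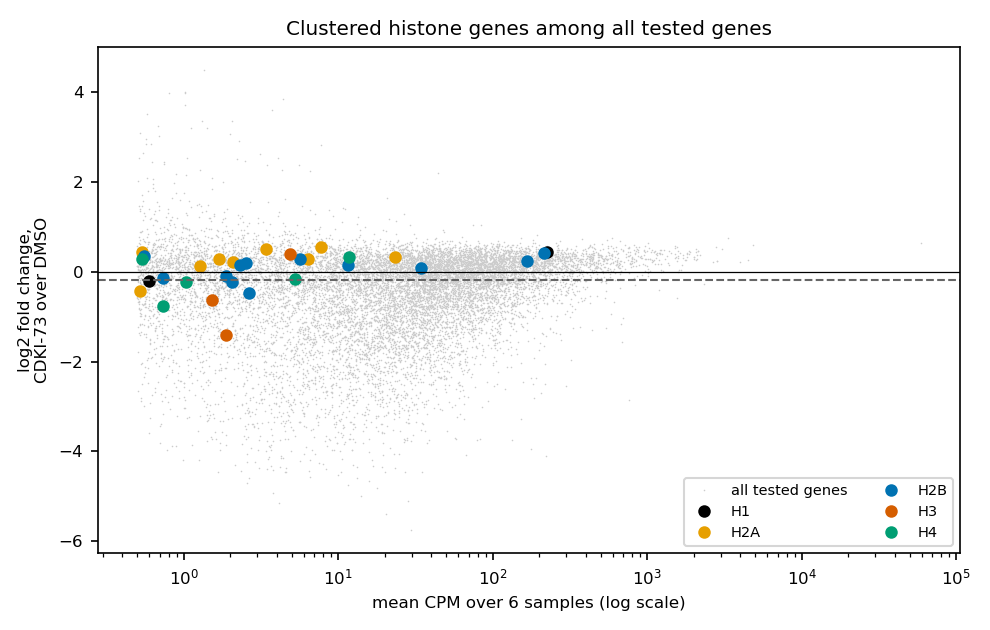
Log2 fold change, CDKI-73 over DMSO, against mean CPM over the 6 samples (log scale) for all 13373 tested genes in grey and the 31 tested members in colour by class. The dashed line is the median over all tested genes, -0.18, and 23 members lie above it.

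Among H1 genes, HIST1H1C, which encodes the linker histone H1.2, had the most reads of all members. It stood at 249, 247 and 286 CPM in CDKI-73 samples and 196, 185 and 189 CPM in DMSO samples. All CDKI-73 samples were above all DMSO samples, and replicate 3 was the highest. Its log2 fold change was 0.46 with a standard error of 0.063 (limma adjusted p = 0.000251), higher than 92.0% of all tested genes. HIST1H1E, which encodes H1.4, was at 0.60, 0.67 and 0.39 CPM in CDKI-73 samples and 0.59, 0.70 and 0.64 CPM in DMSO samples, and did not pass the test. HIST1H1B (H1.5), HIST1H1A (H1.1) and HIST1H1T, the testis H1, averaged under 0.5 CPM. HIST1H1A was at 0.04, 0.02 and 0.04 CPM in CDKI-73 samples and 0 in every DMSO sample, which is below the level of 3 reads in either group, and it met the membership rule through the CDKI-73 samples alone.

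Of 15 H2A genes 9 were tested, and 4 were higher (44.4%), 0 lower and 5 did not pass. Over all tested genes 24.2% were higher and 48.2% lower. HIST1H2AE had the largest rise of any member, at 9.14, 8.65 and 10.1 CPM in CDKI-73 samples and 5.97, 6.50 and 6.28 CPM in DMSO samples. Its log2 fold change was 0.56 with a standard error of 0.083 (limma adjusted p = 0.000369). It has no 75-base stretch in common with transcripts of other genes, so reads of the length used could be told apart from theirs. The rest of the genome was not searched. HIST1H2AM was at 4.66, 3.85 and 3.67 CPM in CDKI-73 samples and 2.59, 3.12 and 2.72 CPM in DMSO samples, a log2 fold change of 0.51 (limma adjusted p = 0.00543). For this gene 65.9% of the 75-base stretches occur in other genes, which leaves its value uncertain. HIST1H2AC, the H2A gene with the most reads, was at 25.6, 23.7 and 28.5 CPM in CDKI-73 samples against 20.0, 20.0 and 21.5 CPM in DMSO samples (log2 fold change 0.33, limma adjusted p = 0.00435). HIST3H2A rose by 0.29 on the log2 scale (limma adjusted p = 0.0154), at 7.27, 6.32 and 7.42 CPM with CDKI-73 against 5.58, 5.56 and 5.90 CPM with DMSO. This call was lost without CDKI-73 replicate 1 (limma adjusted p = 0.0532) or without DMSO replicate 2 (limma adjusted p = 0.0565). Among those that did not pass, HIST2H2AC had no overlap between groups (1.83, 1.62 and 2.21 CPM with CDKI-73 against 1.51, 1.47 and 1.57 CPM with DMSO), while HIST1H2AK leaned the other way, at 0.42, 0.48 and 0.39 CPM against 0.67, 0.73 and 0.45 CPM.

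Of 17 H2B genes 12 were tested, and 3 were higher (25%), 1 lower (8.33%) and 8 did not pass. The higher share was close to the 24.2% of all tested genes, of which 48.2% were lower. HIST1H2BK was at 234, 234 and 268 CPM in CDKI-73 samples and 186, 179 and 183 CPM in DMSO samples. All CDKI-73 samples again lay above all DMSO samples, by 0.42 on the log2 scale with a standard error of 0.059 (limma adjusted p = 0.000267). HIST2H2BE was at 189, 177 and 176 CPM in CDKI-73 samples and 145, 153 and 159 CPM in DMSO samples, a smaller rise of 0.25 with a standard error of 0.051 (limma adjusted p = 0.00261). HIST1H2BG, the divergent partner of HIST1H2AE, rose by 0.30, at 6.33, 5.92 and 6.57 CPM with CDKI-73 against 4.92, 5.16 and 5.18 CPM with DMSO (limma adjusted p = 0.00916). HIST1H2BD, next in reads among the members, did not pass. It was at 35.7, 34.5 and 36.2 CPM with CDKI-73 against 34.8, 33.8 and 32.2 CPM with DMSO, with a log2 difference of 0.079 and a 95% interval of -0.042 to 0.20. The call in the lower direction was HIST2H2BC, a transcribed pseudogene, at 2.35, 2.33 and 1.93 CPM with CDKI-73 against 3.55, 2.96 and 2.78 CPM with DMSO (log2 fold change -0.47, limma adjusted p = 0.0111). Every 75-base stretch of its main transcript occurs in transcripts of other genes as well, overlapping gene models included, which leaves its value uncertain. For HIST1H2BK that share was 39.0% and for HIST2H2BE 4.88%.

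The 8 H3 genes held the largest change of any member, and it was a fall. HIST1H3E, which encodes the replication-dependent H3.1 protein, was at 0.85, 0.98 and 1.15 CPM in CDKI-73 samples and 2.45, 2.84 and 3.08 CPM in DMSO samples. The highest CDKI-73 sample was below the lowest DMSO sample, with a log2 fold change of -1.41 and a standard error of 0.14 (limma adjusted p = 3.95e-05). Among all tested genes 15.1% had a lower value than this. HIST1H3D, a further H3.1 gene, was at 1.0, 1.33 and 1.19 CPM with CDKI-73 against 2.18, 1.62 and 1.82 CPM with DMSO (log2 fold change -0.63, limma adjusted p = 0.00615). HIST1H3H went the other way, at 6.04, 5.26 and 5.49 CPM with CDKI-73 against 4.30, 4.06 and 4.33 CPM with DMSO (log2 fold change 0.39, limma adjusted p = 0.00351). The 3 tested H3 genes therefore all passed, 2 lower and 1 higher, against 48.2% lower and 24.2% higher over all tested genes. HIST1H3E spans 3296 bases in the annotation and HIST1H3D 2510 bases, beyond the 482 and 503 bases of their main transcripts, and gene-level values do not show which transcript changed. HIST1H3D also overlaps HIST1H2AD on the same strand, and 96.3% of its 75-base stretches occur in another gene's transcripts.

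The 5 tested H4 genes encode the same protein, and 1 was higher (20%), 1 lower (20%) and 3 did not pass. Over all tested genes 24.2% were higher and 48.2% lower. HIST1H4H, the H4 gene with the most reads, was at 13.1, 12.7 and 13.7 CPM with CDKI-73 against 11.2, 10.3 and 9.63 CPM with DMSO (log2 fold change 0.34, limma adjusted p = 0.00359). HIST4H4, which lies alone on chromosome 12, was lower at 0.33, 0.66 and 0.59 CPM with CDKI-73 against 0.87, 1.03 and 0.91 CPM with DMSO (log2 fold change -0.77, limma adjusted p = 0.0150, and 0.054 without DMSO replicate 2). HIST1H4C was at 4.18, 5.86 and 4.77 CPM with CDKI-73 against 7.34, 4.96 and 4.39 CPM with DMSO. DMSO replicate 1 was the highest of the 6 samples, and the log2 difference was -0.15 with it and 0.066 without it. HIST1H4E and HIST1H4J did not pass either, with intervals of -0.60 to 0.15 and -0.33 to 0.90 on the log2 scale.

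**Figure D3:**
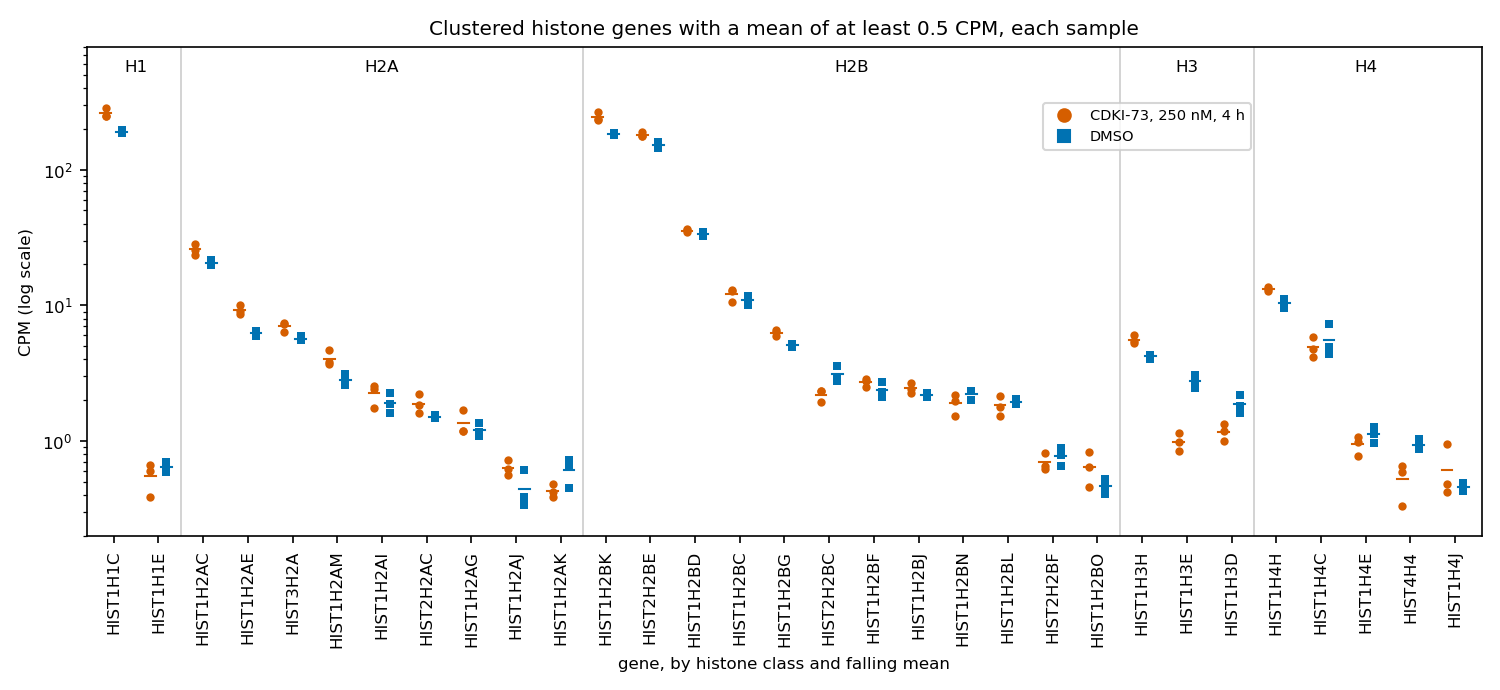
CPM of the 31 tested members in each sample on a log scale, grouped by class, with circles for CDKI-73 samples, squares for DMSO samples and short lines for the group means. HIST1H1C, HIST1H2BK and HIST2H2BE exceed 145 CPM in every sample, and HIST1H3E shows the widest gap, with CDKI-73 samples at 0.85 to 1.15 CPM and DMSO samples at 2.45 to 3.08 CPM.

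**Figure D4:**
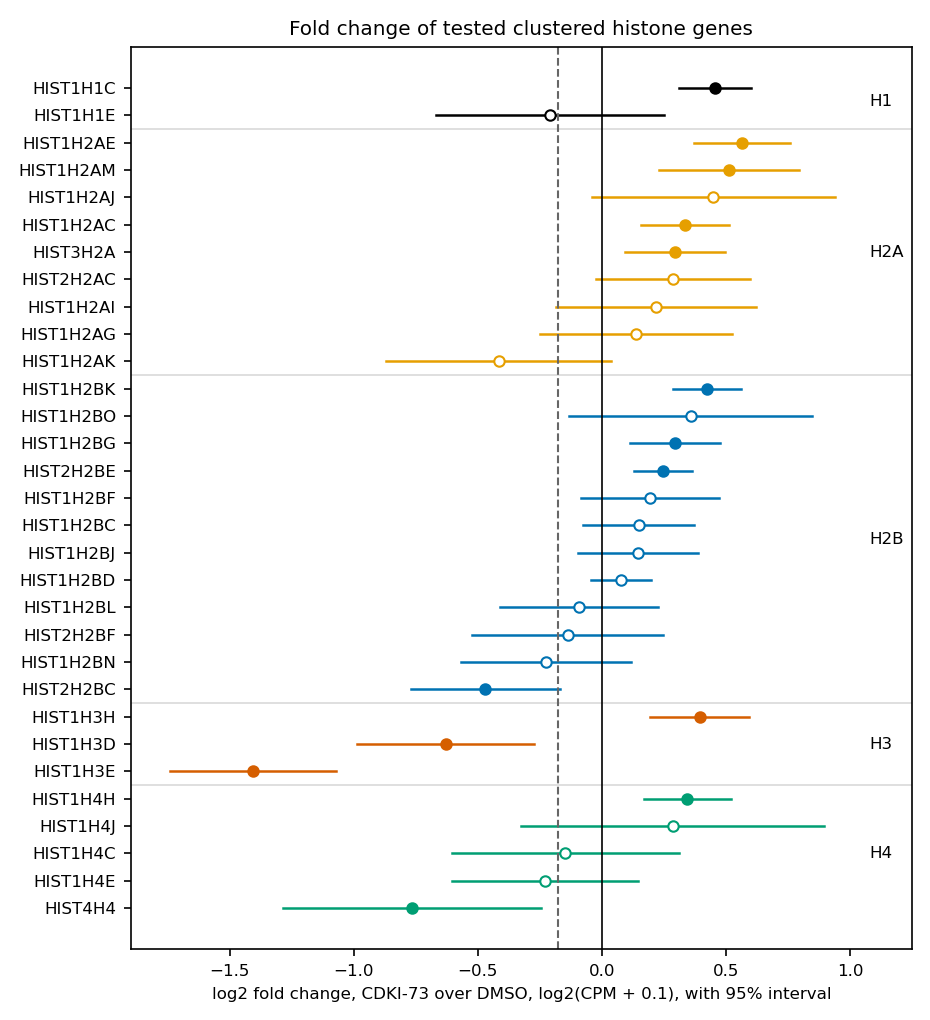
Log2 fold change, CDKI-73 over DMSO, of each tested member with its 95% interval from limma. Filled points passed an adjusted p of 0.05, the solid line is 0 and the dashed line is the median over all tested genes, -0.18. The 4 members called lower are HIST1H3E, HIST4H4, HIST1H3D and HIST2H2BC.

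The calls differed along the range of levels. Of 20 members at 0.5 to 5 CPM, 2 were higher and 4 lower, with a median log2 fold change of 0.021. Of 8 members at 5 to 50 CPM, 5 were higher and 0 lower, with a median of 0.30. All 3 members above 50 CPM were higher. Over all tested genes in the same ranges, 17.8%, 18.2% and 37.6% were higher and 41.2%, 59.7% and 37.0% were lower, from the lowest range to the highest. Of the tested members, 4 averaged under 0.5 CPM in 1 of the groups, and 0 of these passed the test.

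Per length of the main transcript, HIST1H2BK ranked above HIST1H1C, at 496 against 357 CPM per kb in CDKI-73 samples. In DMSO samples they were at 369 and 260 CPM per kb. HIST2H2BE, whose single exon of 2224 bases is the longest of the members, was at 81.4 CPM per kb in CDKI-73 samples and 68.6 CPM per kb in DMSO samples. HIST1H2AC was at 49.9 and 39.5 CPM per kb, and HIST1H4H at 32.2 and 25.3 CPM per kb, with CDKI-73 and DMSO. The lengths used for HIST1H2BK, HIST1H2AC and HIST1H4H were 495, 519 and 409 bases. Longer forms are annotated: HIST1H2BK spans 8566 bases, and the longest transcripts of HIST1H2AC and HIST1H4H have 1668 and 2163 exonic bases. These ranks depend on the length chosen, and which form the reads came from was not tested.

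The 24 members under 0.5 CPM were not tested, and no sample of theirs exceeded 0.64 CPM. In 6 of them every CDKI-73 sample was above every DMSO sample, and in 1 every one was below. Of 5922 genes under 0.5 CPM with a value above 0 in at least 3 samples, the corresponding shares were 13.2% and 14%. The 6 members include HIST1H1A, which met the rule through the CDKI-73 samples alone, so its lack of overlap was fixed by the rule. HIST1H2AH, an H2A gene, was at 0.19, 0.15 and 0.22 CPM with CDKI-73 against 0.05, 0.06 and 0.08 CPM with DMSO. HIST1H3B, an H3.1 gene, was at 0.33, 0.29 and 0.17 CPM against 0.08, 0.13 and 0.11 CPM. HIST1H4K was at 0.15, 0.12 and 0.09 CPM with CDKI-73, and at 0.02, 0 and 0 CPM with DMSO, where the level is under 3 reads. HIST3H2BB was the member that lay lower, at 0.13, 0.25 and 0.43 CPM with CDKI-73 against 0.64, 0.62 and 0.53 CPM with DMSO. With 3 reads at 0.0492 to 0.0651 CPM, all of these values rest on few reads.

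H2A and H2B genes often stand head to head and are transcribed away from each other, and 12 such pairs of members were found, with 194 to 289 bases between the annotated starts. In 7 pairs both genes were tested. Their log2 fold changes had the same sign in 6 pairs and opposite signs in HIST1H2AI and HIST1H2BL (0.22 and -0.094, neither passing). The medians over tested H2A and H2B genes were also above 0 in CPM (0.29 and 0.15), so shared signs need not be particular to pairs. Signs depend on the scaling as well. HIST1H2AE and HIST1H2BG was the pair in which both genes passed, both higher, and the HIST1H2AE window printed above holds both annotated starts. Levels within a pair could lie far apart. HIST1H2BK averaged 245 CPM with CDKI-73 and 183 CPM with DMSO, while HIST1H2AH, whose start lies 251 bases away, averaged 0.187 and 0.0633 CPM. In the pair of HIST3H2A and HIST3H2BB the H2A gene passed as higher, while the H2B gene averaged 0.27 CPM with CDKI-73 against 0.597 CPM with DMSO.

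The calls were spread over the genomic clusters, whose coordinates are from RefSeq GRCh38.p14. Over all tested genes 24.2% were higher and 48.2% lower. The largest cluster, chr6:26017032-26285534, holds 24 members, of which 13 were tested, 5 higher and 2 lower. The cluster at chr6:27132316-27147562 holds 5 members, with 3 tested and 1 (HIST1H2BK) higher. That at chr6:27807479-27893891 holds 15 members, with 9 tested, 2 higher and 0 lower. On chromosome 1, chr1:149782689-149887965 holds 7 members, with 4 tested, 1 higher and 1 lower, and chr1:228457364-228458558 holds HIST3H2A and HIST3H2BB. The member HIST2H2BA, a pseudogene, lies apart on chromosome 1 and did not exceed 0.08 CPM.

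The features of the mRNA end were set beside the calls as a description, and over all tested genes 24.2% were higher and 48.2% lower. Among members with AATAAA within 1000 bases after the stop, 12 were tested, of which 5 were higher and 0 lower, with a median log2 fold change of 0.31. Among those without it, 18 were tested, of which 5 were higher and 3 lower, with a median of 0.17. HIST1H3E, HIST1H3D and HIST4H4 are the 3 in the lower direction. HIST2H2BE counts as without AATAAA, although its single annotated exon of 2224 bases runs past the 1000 bases searched. The annotated span of HIST1H3E also ends beyond the bases searched, and HIST4H4 has a form of 1918 exonic bases whose end was not examined. Lack of AATAAA therefore describes the window and not every annotated mRNA end. Members with an annotated transcript of at least 900 exonic bases had a median of 0.15 over 11 tested genes, and those without had 0.20 over 20. Among the 13 tested members whose main transcript shares no 75-base stretch with transcripts of another gene, 6 were higher and 2 (HIST1H3E and HIST4H4) lower. Longer annotated forms, of up to 2679 exonic bases in HIST1H3E and 1918 in HIST4H4, and the rest of the genome were not searched. Whether all reads of these genes can be placed is therefore not shown.

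Replacement and other histone genes outside the clusters were compared next. Replacement histones are in general made through the cell cycle from mRNA with a poly(A) tail, which need not hold for each gene listed. Of 20 listed, 11 were tested, and 3 were higher (27.3%) and 4 lower (36.4%), with a median log2 fold change of -0.030. Over all tested genes 24.2% were higher and 48.2% lower. With the gene ratios or the upper quartile as scale, 5 were higher and 4 lower, and with the reference genes 0 were higher and 8 lower. The largest fall was in CENPA, the centromeric H3 variant, at 2.62, 2.81 and 3.32 CPM with CDKI-73 against 17.4, 16.6 and 15.6 CPM with DMSO (log2 fold change -2.47, limma adjusted p = 1.77e-07). The H3.3 gene H3F3B was at 454, 472 and 482 CPM with CDKI-73 against 782, 741 and 712 CPM with DMSO, a log2 fold change of -0.67 (limma adjusted p = 5.03e-06). H3F3A, the further H3.3 gene, went the other way (0.42, limma adjusted p = 0.00728), but it has near-identical processed copies in the genome and its value is uncertain. H2AFJ (0.44, limma adjusted p = 0.000756) and H2AFY (0.40, limma adjusted p = 3.99e-05) were also called higher. H2AFX, whose protein marks DNA breaks, fell by 0.63, and H1F0, the linker histone of resting cells, fell by 0.61 on the log2 scale. H2AFZ, the H2A.Z gene, did not pass (log2 difference -0.025, 95% interval -0.26 to 0.21, limma adjusted p = 0.838).

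Genes that act in histone gene transcription and in histone mRNA 3′ processing were mostly lower in CPM. Of 39 listed symbols 35 were tested, and 4 were higher (11.4%) and 21 lower (60%), 12 of them by 2-fold or more, with a median of -0.25, against 24.2% higher and 48.2% lower over all tested genes. With the gene ratios or the upper quartile as scale, 13 were higher and 16 lower, and with the reference genes 0 were higher and 32 lower. NPAT was at 7.29, 7.25 and 5.23 CPM with CDKI-73 against 43.8, 48.4 and 45.3 CPM with DMSO, a log2 fold change of -2.79 (limma adjusted p = 2.81e-07). CASP8AP2 was at 5.48, 5.55 and 4.40 CPM with CDKI-73 against 29.0, 32.7 and 31.8 CPM with DMSO, a log2 fold change of -2.58 (limma adjusted p = 1.45e-07). In both genes the samples of the 2 groups were far apart. SLBP was at 81.0, 81.3 and 81.7 CPM with CDKI-73 against 151, 149 and 145 CPM with DMSO, a log2 fold change of -0.86 (limma adjusted p = 2.96e-07). ZNF473 (ZFP100) and LSM11, which belong to the U7 processing machinery, fell by 2.86 and 2.18, and CCNE2, a cyclin that activates CDK2 at the start of S phase, fell by 2.67 on the log2 scale. SYMPK, a scaffold of the cleavage complex, was higher by 0.48, and by 0.071 with the reference genes as scale.

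In CPM, of 23 histone chaperone genes 4 were higher (17.4%) and 11 lower (47.8%), with a median of -0.037, and the lower share was close to the 48.2% of all tested genes. The counts turned to 11 higher and 10 lower with the gene ratios and 12 higher and 10 lower with the upper quartile. With the reference genes as scale, 0 were higher and 21 lower. The largest falls were in HJURP (-3.70), the chaperone of CENPA, in SPTY2D1 (-1.78), in UBN1 (-1.28), a subunit of the HIRA complex, and in CHAF1A (-1.18), a subunit of the replication-coupled assembly factor CAF-1. Of 31 S phase genes 3 were higher (9.68%) and 20 lower (64.5%), 6 of them by 2-fold or more, with a median of -0.35, and more were lower than higher under each scaling. GINS3, a part of the replicative helicase, fell by 2.72 on the log2 scale, and POLD3, a DNA polymerase delta subunit, fell by 2.22. The origin licensing factors CDC6 and CDT1 fell by 1.49 and 1.47. The clustered histone genes, with 10 higher, 4 lower and a median of 0.19, had the highest median of these lists in CPM, and no test of the difference between lists was made.

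**Figure D5:**
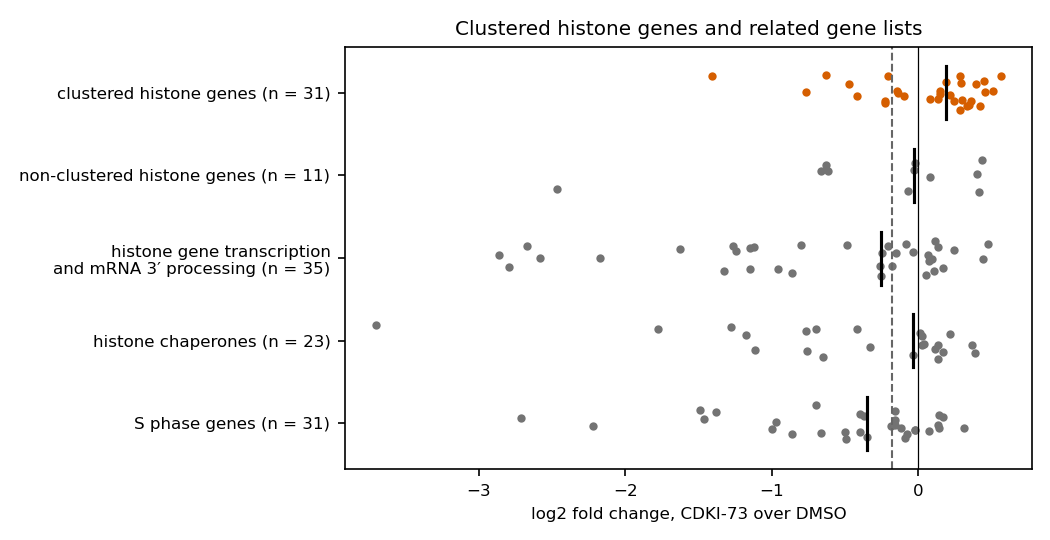
Log2 fold change, CDKI-73 over DMSO, of each tested gene in 5 lists, with the clustered histone genes at the top. Each point is a gene, short vertical lines are list medians, the dashed line is the median over all tested genes and the solid line is 0. List medians are 0.19, -0.030, -0.25, -0.037 and -0.35 from top to bottom.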

How the data were processed

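Poly(A)-selected, stranded single-end 75-base reads were mapped by the authors (STAR, hg38), who counted them by gene and deposited CPM, reads scaled to a total of 1e6 per sample, with 2 decimals and no TMM factor. The submitters' processing notes name FastQC, STAR, edgeR 3.3 and R 3.2.3. For the counting, the strand setting and annotation were not given in the sources used here.

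CPM are not counts, and no count test was run. Genes with a mean of at least 0.5 CPM over the 6 samples entered a limma 3.58.1 fit (R 4.3.3) of log2(CPM + 0.1) on treatment alone, with moderated variances that follow the mean level and Benjamini-Hochberg adjustment over 13373 genes. Thresholds were an adjusted p of 0.05 and, for 2-fold calls, a 2-fold change. Fold changes on this scale understate the change of low genes. Depth per sample was inferred from the step between low CPM values, of which 99.5 to 100% then matched whole reads to the rounding of 0.01 CPM (46.1 to 60.9% of arbitrary values would). Levels given as a number of reads cover counting error only.

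Symbols were matched to RefSeq GRCh38.p14. Stem-loops and shared 75-base stretches, overlapping gene models included, came from hg38 with GENCODE 44, using Python 3.11.15, pandas 2.3.3, pysam 0.24.0 and matplotlib 3.10.9. Every member may be named. From other lists, up to 4 genes with the largest passing change are named, with SLBP, NPAT, CASP8AP2, H2AFX, H2AFZ, H3F3A and H3F3B. LSM11, SYMPK, H2AFJ, H2AFY, GAPDH, HPRT1 and ACTB were added after their values were seen. Members and lists were chosen with earlier results of these data known. Settings tried were the pseudocount, the filter, 3 scalings, the limma options, a replicate block and leaving out each sample.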

Additional observations from a re-analysis of the deposited data

How the results depend on the processing

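With a pseudocount of 0.01 CPM, limma without trend or limma robust, no count of members or of all genes moved by over 1.5 times, and no member changed direction. Samples of the same replicate number did not deviate together (r = -0.29, 0.11 and -0.23), and they were treated as unpaired. With deviations from the mean of only 3 samples per group, this check cannot exclude that replicates were prepared together. A replicate block again gave 10 members higher and 4 lower, against 20.8% and 46.1% of all genes. Leaving out each sample in turn gave 9 to 13 members higher, 3 to 5 lower, 0 higher by 2-fold and 1 lower by 2-fold. Over all genes 19.8 to 25.5% were then higher and 45.4 to 49.8% lower. Leaving out a sample also turned the direction of 3 members that had not passed: HIST1H2AG (-0.023 without CDKI-73 replicate 1, the highest being 0.22), HIST1H2BL (0.017 without CDKI-73 replicate 3, the lowest being -0.21) and HIST1H4C (0.066 without DMSO replicate 1, the lowest being -0.30).

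Scaling set the counts. Members higher numbered 17 when scaled to the median of gene ratios, 18 to the upper quartile and 0 to the reference genes, and members lower numbered 1 with the upper quartile and 12 with the reference genes, 3 of them by 2-fold. Over all genes 5122, 5760 and 395 were higher in that order (38.3%, 43.1% and 2.95%), and 39.5%, 36.7% and 73.9% (9882 genes) were lower. The 2-fold higher count over all genes was 229, 279 and 79. The median of all genes shifted by 0.20, 0.27 and -0.40, while the members' median stayed 0.28 to 0.46 above it under every setting. Reference-gene scaling reversed HIST1H2AC (-0.072), HIST1H2AG (-0.24), HIST1H2AI (-0.17), HIST1H2BC (-0.26), HIST1H2BD (-0.33), HIST1H2BF (-0.20), HIST1H2BG (-0.10), HIST1H2BJ (-0.24), HIST1H3H (-0.0056), HIST1H4H (-0.061), HIST1H4J (-0.057), HIST2H2AC (-0.10), HIST2H2BE (-0.16) and HIST3H2A (-0.11). The upper quartile reversed HIST1H1E (0.026), HIST1H2BL (0.17), HIST1H2BN (0.037), HIST1H4C (0.12), HIST1H4E (0.023) and HIST2H2BF (0.11), and the gene ratios HIST1H2BL (0.10), HIST1H4C (0.050) and HIST2H2BF (0.040). Of the 4 members called lower, 4 kept the call with the reference genes, 3 with the gene ratios and 1, HIST1H3E, with the upper quartile.

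Without a filter 16 of 55 members were higher, 2 by 2-fold, against 19.2% of all genes higher. In all, 377 genes were higher by 2-fold. With a mean of at least 2 CPM, which leaves 18 members, 10 were higher, 1 was lower and 0 lower by 2-fold. Over all genes at that filter 25.4% were higher and 50.4% lower, and 52 genes in all were higher by 2-fold. A pseudocount of 1 CPM left 0 members lower by 2-fold and 52 genes in all higher by 2-fold.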
